A study of Homo sapiens with 6 samples.

Results

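The genes examined here were 10 histone deacetylases and sirtuins, namely HDAC1 to HDAC8, SIRT1 and SIRT6, taken by name and matched to the Ensembl identifiers of the deposited tables through GENCODE symbols. All 10 were found among the 60612 genes of each table, and 9 of them had a mean of at least 1 FPKM (fragments mapped to a transcript, divided by its length and by the library's mapped fragments). The 6 libraries came from the established human colorectal carcinoma line HCT116. Of these, 3 were from cells that had received a control lentivirus (LV-NC) and 3 from cells given a lentivirus that overexpresses the small nucleolar RNA SNORA28 (LV-SNORA28). Both groups therefore carried a lentivirus and differed in its insert, and all libraries came from 1 cell line at 1 time after infection. Nothing in the labels says whether the 3 libraries of a group came from separate cultures, so the p-values measure the spread between these libraries only.

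Histone deacetylases remove acetyl groups from lysines of histones and of other proteins, and removal from histones is generally linked to compacted, less transcribed chromatin. The zinc-dependent enzymes fall into class I (HDAC1, HDAC2, HDAC3 and HDAC8, mainly nuclear), class IIa (HDAC4, HDAC5, HDAC7 and HDAC9, which shuttle between nucleus and cytoplasm and have little catalytic activity of their own), class IIb (HDAC6 and HDAC10, largely cytoplasmic) and class IV (HDAC11). The sirtuins form class III and consume NAD+. Elsewhere in the study cells were treated with the deacetylase inhibitors Trichostatin A and Vorinostat, so the question here is whether SNORA28 overexpression changed the messages of the deacetylases themselves.

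The overexpressed RNA followed the labels. SNORA28 (ENSG00000272533) had 0.92, 0 and 0.64 FPKM in LV-NC replicates 1, 2 and 3, against 15.01, 13.66 and 15.2 FPKM in the LV-SNORA28 libraries. Of 6 markers of intestinal epithelium, 5 were above 1 FPKM, and VIL1 was at most 0.04 FPKM. The fibroblast, leukocyte and endothelial markers summed to at most 4.47, 4.16 and 0.12 FPKM per library, with DCN, LUM and COL1A2 listed at 0 throughout. The leukocyte sum was nonetheless between 1.08 and 2.21 FPKM in LV-NC and between 2.49 and 4.16 FPKM in LV-SNORA28, and the part of these low signals in the results was not tested. Mitochondrially encoded transcripts took 44.4% ± 2.83 of the summed FPKM of the LV-NC libraries and 37.3% ± 1.25 of that of the LV-SNORA28 libraries (mean ± SD, n = 3 each). FPKM is relative to all mapped fragments, so this share can bear on the values below. The FPKM sum of genes outside the mitochondrial genome was 193783 ± 2489 in LV-NC and 197457 ± 1685 in LV-SNORA28 (mean ± SD, n = 3 each). The 12076 genes tested had a median log2 fold change of 0.09 rather than 0. In the fit scaled to that sum the median was 0.06, and the cause of the shift was not tested. In bulk RNA, fewer cells with a message and less of it per cell cannot be told apart.

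The promoter windows of SIRT1, a member that passed the test, and of HDAC1, the most abundant member, are shown from RefSeq on GRCh38.p14, both on the plus strand, written 5′ to 3′. SIRT1 (chr10:67884406-67884655) and HDAC1 (chr1:32291833-32292082) are each given as the 250 bases upstream of the start site. Capitals mark GC boxes (GGGCGG, or CCGCCC on the other strand), CCAAT boxes (CCAAT or ATTGG) and E-boxes (CACGTG, the same on both strands); TATAAA and TTCNNNGAA, the general form of a STAT site, were also searched on both strands.
SIRT1: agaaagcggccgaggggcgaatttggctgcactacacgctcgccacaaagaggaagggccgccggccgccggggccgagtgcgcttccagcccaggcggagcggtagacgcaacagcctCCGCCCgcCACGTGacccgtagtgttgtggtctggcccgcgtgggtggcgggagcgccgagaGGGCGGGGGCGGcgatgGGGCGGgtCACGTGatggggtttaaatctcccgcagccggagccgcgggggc
HDAC1: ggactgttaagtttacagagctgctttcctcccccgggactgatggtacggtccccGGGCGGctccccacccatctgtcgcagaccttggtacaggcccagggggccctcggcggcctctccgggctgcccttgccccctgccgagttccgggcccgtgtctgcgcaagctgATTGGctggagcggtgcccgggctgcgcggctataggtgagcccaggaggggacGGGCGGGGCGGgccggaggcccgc

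The SIRT1 window held 4 GC boxes and 2 E-boxes, without overlap, and no CCAAT box. The HDAC1 window held 3 GC boxes, 2 of them overlapping in 1 base near the start site, and 1 CCAAT box. A GC box occurred in 42.6% of all 35116 RefSeq windows of this length, a CCAAT box in 32.0%, TATAAA in 10.7%, CACGTG in 6.34% and TTCNNNGAA in 6.57%. At least 2 E-boxes occurred in 0.535% of all windows and, among the 16 windows of the 9 members with an entry, in that of SIRT1 alone. The limit of 2, the number in the SIRT1 window, was counted for E-boxes only. The SIRT1 window was 72.0% G and C, against a median of 58.0% over all windows, and the percentages are not adjusted for this. GC boxes were found in 9 of the 16 windows, from 6 members. TTCNNNGAA was found in 2 of the 16, of HDAC4 and HDAC8, and TATAAA in none. Some members have more than 1 window, so the percentages above apply to windows and not to genes. These matches describe the letters in the window and are no evidence of binding. HDAC5 had no entry.

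HDAC1 was by far the most abundant family message, and the class I enzymes together made up most of the members' summed FPKM. Over the 6 libraries HDAC1 ranged from 52.4 to 65.19 FPKM with a median of 61.2 FPKM, and it overlapped with no other family gene. HDAC3 (median 10.8 FPKM) and HDAC2 (9.19 FPKM) followed, and their ranges overlapped. HDAC5 (7.11 FPKM), SIRT6 (7.21 FPKM) and SIRT1 (6.27 FPKM) had overlapping ranges, and that of SIRT1 reached down into that of HDAC6 (4.89 FPKM). HDAC7 (3.22 FPKM), HDAC4 (1.94 FPKM) and HDAC8 (0.685 FPKM) followed, and each lay below every library of the member before it. Class I held 73.1% ± 2.52 of the members' summed FPKM in LV-NC and 73.1% ± 1.04 in LV-SNORA28 (mean ± SD, n = 3 each), and HDAC1 alone held 54.7% ± 2.75 and 52.6% ± 1.96. The shares of class IIa (11.1% ± 1.36 and 10.9% ± 0.614), of HDAC6 (4.09% ± 0.680 and 4.20% ± 0.312) and of both sirtuins (11.7% ± 0.501 and 11.8% ± 0.513) likewise differed by less than the spread between replicates. The sum over the 10 genes was 101.7, 108.76 and 107.88 FPKM in LV-NC and 118.42, 124.44 and 119.85 FPKM in LV-SNORA28, without overlap. After scaling to the FPKM sum of genes outside the mitochondrial genome it was 104 to 109 in LV-NC and 118 to 122 in LV-SNORA28. HDAC1 (group means 58.1 and 63.6 FPKM in LV-NC and LV-SNORA28) and HDAC3 (10.2 and 14.8 FPKM) contributed most to the difference in this sum. Both overlapped between groups, and neither had an adjusted p below 0.05 in limma. Among single genes tested, 27.0% were higher without overlap. The levels in this paragraph depend on the transcript lengths behind FPKM, and the canonical transcript of HDAC2 has 9737 bases against 2118 for HDAC1.

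**Figure D1:**
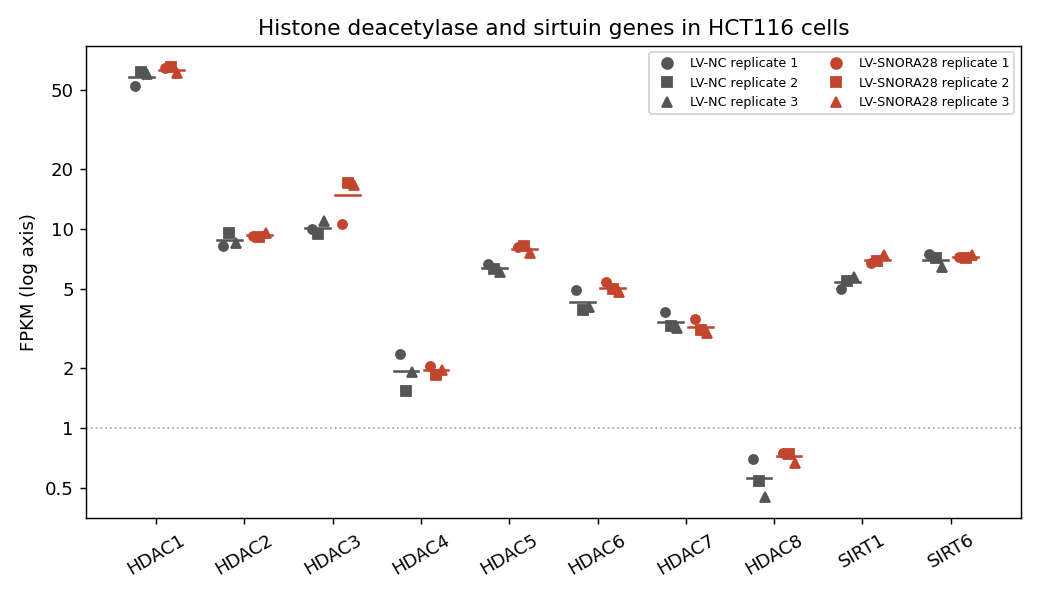
FPKM of the 10 histone deacetylase and sirtuin genes (log axis) in each LV-NC library (grey) and LV-SNORA28 library (red), with marker shapes for replicates and short lines at group means; the dotted line is at 1 FPKM. HDAC1 lies above 50 FPKM in every library and HDAC8 below 1 FPKM, and HDAC5 and SIRT1 are the members whose groups do not overlap.

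SIRT1 and HDAC5 passed the test, and both were higher in LV-SNORA28, by about 30.2% and 25.5% of the LV-NC mean. In limma, with Benjamini-Hochberg adjustment over all genes tested, 2 of the 9 tested members had an adjusted p below 0.05, against 8.91% of all genes tested (6.81% for higher genes alone). The 2 were also the members whose libraries did not overlap between groups in the higher direction, which held for 27.0% of all genes tested. Of the 9, 8 had a positive log2 fold change, against 66.7% of all genes, and their median was 0.13 against 0.09. The share of members without overlap was below that of all genes, while the shares called and positive were above. With 9 genes tested, each share rests on few members. The members are therefore not read as standing apart from the rest, nor as the same as it. The study's RNA-sequencing threshold combined a p below 0.05 and a change of over 1.5 times. Its limits were applied here to the unadjusted p and the log2(FPKM + 1) fold change of limma. They were passed by 0 members, against 3.79% of all genes. The study's own test was not repeated, so these are not the study's counts. Without the fold limit, 3 of the 9 members had an unadjusted p below 0.05 in limma, all higher. That compares with 22.0% of all genes in that direction and 3385 of the 12076 genes in either direction.

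SIRT1 (ENSG00000096717; GRCh38 chromosome 10, 67884656 to 67918390) encodes a nuclear NAD+-dependent deacetylase of histones and of transcription factors such as p53. The LV-NC libraries had 4.98, 5.46 and 5.76 FPKM, and the LV-SNORA28 libraries 6.77, 6.92 and 7.41 FPKM. Every LV-SNORA28 library lay above every LV-NC library. On the log2(FPKM + 1) scale, used for every fold change here, the difference was 0.33 (SE 0.08; limma, adjusted p = 0.0459). HDAC5 (ENSG00000108840; chromosome 17, 44076746 to 44123702) encodes a class IIa enzyme that binds MEF2 transcription factors and leaves the nucleus when phosphorylated. Its libraries had 6.66, 6.31 and 6.08 FPKM in LV-NC and 8.14, 8.21 and 7.56 FPKM in LV-SNORA28, again without overlap. The difference on the log2 scale was 0.29 (SE 0.07; limma, adjusted p = 0.0486). G6PC3 overlaps HDAC5 on the opposite strand over 5406 bases, and the strand setting of the quantification is not given in the sources used here. Without strand, reads of the overlap cannot be assigned, and G6PC3 itself ranged from 4.79 to 5.82 FPKM in LV-NC and from 4.95 to 5.87 FPKM in LV-SNORA28.

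Both calls lay close to the threshold. With any 1 library left out, the adjusted p in limma was between 0.0741 and 0.146 for SIRT1 and between 0.0660 and 0.157 for HDAC5, and quantile normalization gave 0.130 and 0.150. Both stayed positive in all 13 alternatives and kept an adjusted p below 0.05 in 2 of the 13, which were the restriction to a mean of at least 5 FPKM and the pseudocount of 0.1. The ratio of SIRT1 to SIRT6 does not depend on the scaling between libraries. It was 0.774 ± 0.116 in LV-NC and 0.968 ± 0.0358 in LV-SNORA28 (mean ± SD, n = 3 each), and the lowest LV-SNORA28 library (0.933) was above the highest LV-NC library (0.894). The ratio of HDAC5 to HDAC7 was likewise higher in each LV-SNORA28 library, at 1.86 ± 0.105 and 2.49 ± 0.169 (SD, n = 3), with the one tested member of negative fold change as its denominator. Against HDAC4, the other class IIa relative, the HDAC5 ratio overlapped between groups, at 2.81, 4.12 and 3.18 in LV-NC and 3.99, 4.44 and 3.86 in LV-SNORA28. No test is attached to these ratios, which were chosen with the values known.

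**Figure D2:**
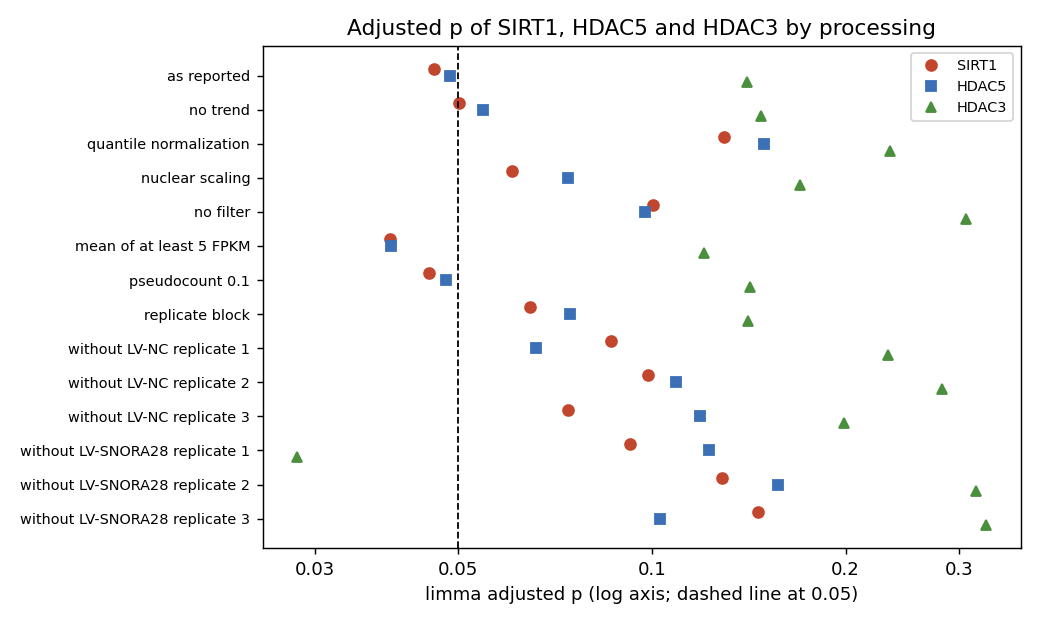
Adjusted p in limma (log axis) of SIRT1, HDAC5 and HDAC3 as reported and under each of 13 alternatives; the dashed line is at 0.05. SIRT1 and HDAC5 lie at 0.0459 and 0.0486 as reported and to the right of the line in 11 of the 13 alternatives, and HDAC3 lies to the left of it only without LV-SNORA28 replicate 1.

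HDAC3 had the largest fold change of the members, but 1 library decided whether it passed. HDAC3 (ENSG00000171720; chromosome 5, 141620876 to 141636849) encodes the catalytic subunit of the NCoR corepressor complex. It had 10.05, 9.44 and 11.05 FPKM in LV-NC, and 10.63, 17.11 and 16.65 FPKM in LV-SNORA28. Replicate 1 of LV-SNORA28 lay within the range of the control libraries, and replicates 2 and 3 lay well above it. On the log2 scale it was 0.47 higher (SE 0.18; limma, unadjusted p = 0.0333, adjusted p = 0.141). When LV-SNORA28 replicate 1 was left out, the difference was 0.68 (limma, adjusted p = 0.0282). Leaving out any other library gave an adjusted p between 0.199 and 0.331 in limma.

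The other class I messages did not pass the test. HDAC1 (ENSG00000116478; chromosome 1, 32292083 to 32333635) and HDAC2 (ENSG00000196591; chromosome 6, 113933028 to 114011308) encode the paired catalytic subunits of the SIN3, NuRD and CoREST complexes. HDAC1 had 52.4, 61.53 and 60.36 FPKM in LV-NC and 64.7, 65.19 and 60.8 FPKM in LV-SNORA28, where the lowest LV-SNORA28 library fell within the control range. The log2 difference was 0.13 (SE 0.08, 95% interval -0.06 to 0.32; limma, adjusted p = 0.324). HDAC2 had 8.26, 9.62 and 8.57 FPKM in LV-NC and 9.21, 9.17 and 9.59 FPKM in LV-SNORA28, and its log2 fold change of 0.07, which was -0.011 under quantile normalization, had an interval from -0.10 to 0.25 and an adjusted p of 0.552 in limma. The ratio of HDAC1 to HDAC2 was 6.59 ± 0.390 in LV-NC and 6.82 ± 0.422 in LV-SNORA28 (mean ± SD, n = 3 each), a difference within the spread. The HDAC1 pseudogenes HDAC1P1 and HDAC1P2 were listed at no more than 0.04 FPKM.

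HDAC8 (ENSG00000147099; chromosome X, 72329516 to 72573101), a class I enzyme known for deacetylating the cohesin subunit SMC3, was the one member below the filter. Its libraries had 0.7, 0.54 and 0.45 FPKM in LV-NC and 0.75, 0.74 and 0.67 FPKM in LV-SNORA28, with LV-NC replicate 1 inside the range of the other group. Without a filter, limma gave a log2 difference of 0.14 (SE 0.10; adjusted p = 0.611). Another annotated gene, ENSG00000285547, covers 243328 bases of HDAC8 on the same strand and had 0, 0.62 and 0.97 FPKM in LV-NC, and 0, 0 and 0.78 FPKM in LV-SNORA28. Reads from shared sequence can be divided between the pair in different ways, so the level of HDAC8 is uncertain.

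Of the remaining class II members, HDAC6 came nearest to a difference. HDAC6 (ENSG00000094631; chromosome X, 48801377 to 48824982), the tubulin deacetylase of the cytoplasm, had 4.95, 3.93 and 4.08 FPKM in LV-NC and 5.4, 4.99 and 4.83 FPKM in LV-SNORA28. LV-NC replicate 1 lay above the lowest LV-SNORA28 library, and the log2 fold change of 0.19 (SE 0.09, 95% interval -0.03 to 0.42) had an adjusted p of 0.234 in limma. HDAC4 (ENSG00000068024; chromosome 2, 239048168 to 239401654), a class IIa relative of HDAC5, had 2.37, 1.53 and 1.91 FPKM in LV-NC and 2.04, 1.85 and 1.96 FPKM in LV-SNORA28. All 3 LV-SNORA28 libraries fell inside the control range, and the log2 fold change of 0.02 (interval -0.27 to 0.30), which was -0.070 under quantile normalization and -0.0025 after nuclear scaling, had an adjusted p of 0.946 in limma. HDAC7 (ENSG00000061273; chromosome 12, 47782722 to 47833132), also of class IIa, was the one tested member with a negative value. It had 3.82, 3.26 and 3.18 FPKM in LV-NC and 3.52, 3.1 and 3 FPKM in LV-SNORA28, with overlapping groups, a log2 fold change of -0.07 (interval -0.29 to 0.15) and an adjusted p of 0.658 in limma.

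SIRT6 (ENSG00000077463; chromosome 19, 4174109 to 4182566), a chromatin-bound sirtuin that acts on histone H3 and in DNA repair, differed by less than its spread. It had 7.51, 7.14 and 6.44 FPKM in LV-NC and 7.26, 7.16 and 7.38 FPKM in LV-SNORA28, all within the control range. The log2 fold change of 0.04 (interval -0.13 to 0.22), which was -0.054 under quantile normalization, had an adjusted p of 0.734 in limma.

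**Figure D3:**
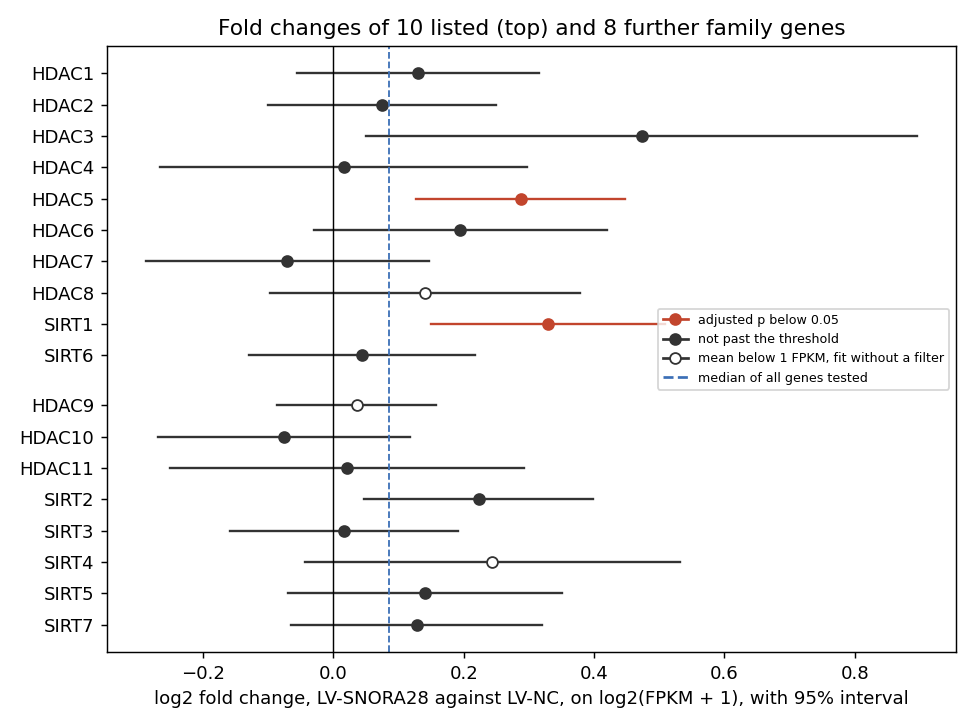
Log2 fold change of LV-SNORA28 against LV-NC on the log2(FPKM + 1) scale, with 95% intervals, for the 10 listed genes (top) and the 8 further genes of the families; open circles are genes with a mean below 1 FPKM, and the dashed line is the median of all genes tested (0.09). SIRT1 and HDAC5, in red, have intervals above the median line, and HDAC3 has the largest value (0.47) and the widest interval.

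The families hold 8 further genes, of which 6 passed the filter. Of these 6, 0 had an adjusted p below 0.05 in limma, against 8.91% of all genes tested. SIRT2 alone of the 6 had an unadjusted p below 0.05 in limma, and was higher, as were 22.0% of all genes at that limit. The median log2 fold change of the 6 was 0.07, against 0.09 for all genes tested. SIRT2, the mainly cytoplasmic sirtuin that deacetylates tubulin, had 2.3, 2.22 and 2.25 FPKM in LV-NC and 2.8, 2.99 and 2.62 FPKM in LV-SNORA28, without overlap, and its log2 fold change of 0.22 (SE 0.07) had an adjusted p of 0.109 in limma. The nucleolar SIRT7 (log2 fold change 0.13) and the mitochondrial SIRT5 (0.14) and SIRT3 (0.02, and -0.072 under quantile normalization) had adjusted p-values of 0.350, 0.345 and 0.909 in limma. HDAC10 (-0.08) and HDAC11 (0.02, and -0.061 under quantile normalization) had 0.590 and 0.925. SIRT7 and HDAC10 share sequence on the same strand with MAFG and MAPK12, so their reads are uncertain. SIRT4 (0.783 ± 0.165 and 1.11 ± 0.159 FPKM, SD, n = 3) and HDAC9 (0.143 ± 0.0252 and 0.173 ± 0.0651 FPKM, SD, n = 3) were below the filter.

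Deacetylases of class I act inside multi-subunit complexes, and the messages of their partners were read from the same fit. The list held 47 genes for subunits of the SIN3, NuRD, CoREST, NCoR and MiDAC complexes and the shared histone chaperones RBBP4 and RBBP7. Of these, 2 were higher and 0 lower (4.26%), against 8.91% of all genes tested and 6.81% for higher genes alone. The median log2 fold change was 0.10, against 0.09 for all genes tested. By complex, 1 of 14 SIN3 genes was higher (median 0.10), 0 of 11 NuRD genes (median 0.05), 0 of 10 CoREST genes (median 0.13), 1 of 7 NCoR genes (median 0.03), 0 of 3 MiDAC genes (median 0.09) and 0 of the 2 chaperones (median 0.13). ING1, a SIN3 subunit that reads methylated histone H3, had 2.05, 1.94 and 2.11 FPKM in LV-NC and 3.63, 4.02 and 3.7 FPKM in LV-SNORA28. It was 0.66 higher on the log2 scale (SE 0.07; limma, adjusted p = 0.00690), and the adjusted p stayed below 0.05 in all 12 alternatives that tested it. TBL1XR1, a core subunit of the NCoR complex beside HDAC3, had 5.2, 3.44 and 4.92 FPKM in LV-NC and 6.99, 9.27 and 9.98 FPKM in LV-SNORA28. It was higher by 0.82 on the log2 scale (SE 0.17; limma adjusted p = 0.0361), and with 1 library left out the adjusted p lay between 0.0456 and 0.116, below 0.05 only in the absence of LV-SNORA28 replicate 1.

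Class IIa enzymes are held in the cytoplasm by 14-3-3 proteins after phosphorylation by kinases such as SIK and PKD, and they bind MEF2 factors in the nucleus. Of 20 such genes, 17 were tested and 0 had an adjusted p below 0.05 in limma, against 8.91% of all genes tested. An unadjusted p below 0.05 in limma was found for 4 (all higher, against 22.0% of all genes). The median log2 fold change was 0.17, against 0.09 for all genes tested. The 4 were the 14-3-3 genes YWHAB, YWHAE, YWHAZ and SFN, named after their values were seen. Among 14-3-3 genes, YWHAE (0.21), YWHAZ (0.21), SFN (0.17) and YWHAH (0.68) were higher without overlap, as were 27.0% of all genes tested. YWHAG (0.04) and YWHAQ (0.0009) overlapped between groups. YWHAB had the largest difference, 1.26 (SE 0.48, limma adjusted p = 0.151). Its groups overlapped, with 5.77, 7.43 and 21.35 FPKM in LV-NC and 30.49, 15.74 and 32.13 FPKM in LV-SNORA28. Sirtuins depend on the NAD+ supply. Of 10 genes listed for NAD+ synthesis and related steps, 5 were tested. Of the 5, 1 was higher and 0 lower, against 8.91% of all genes tested in either direction. The 5 include CCAR2, which encodes no enzyme of NAD+ synthesis. Their median log2 fold change was -0.01, which is the value of CCAR2. The higher gene was NAMPT, the rate-limiting enzyme of NAD+ salvage, with 9.21, 9.87 and 9.89 FPKM in LV-NC and 12.01, 12.89 and 12.82 FPKM in LV-SNORA28. NAMPT was 0.35 higher on the log2 scale (SE 0.06; limma, adjusted p = 0.0253), and leaving out any 1 library put the adjusted p between 0.0542 and 0.0986. Of the 5 tested genes, 2 had a positive log2 fold change. NAPRT, which starts NAD+ synthesis from nicotinic acid and is named here after its values were seen, went the other way without overlap, with 17.3, 17.42 and 16.55 FPKM in LV-NC and 14.62, 14.47 and 15.08 FPKM in LV-SNORA28, and its log2 difference of -0.20 (SE 0.06) missed the threshold (limma, adjusted p = 0.0733).

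Genes that are known to rise when deacetylases are inhibited formed the last list, with 9 genes of which 8 were tested. There were 3 higher and 0 lower, against 8.91% of all genes tested in either direction. The median log2 fold change was 0.12, and 4 of the 8 had a positive value, against 66.7% of all genes tested. CLU, the secreted chaperone clusterin, had 28.69, 26.94 and 28.48 FPKM in LV-NC and 39.6, 40.69 and 36.19 FPKM in LV-SNORA28, a log2 difference of 0.45 (SE 0.07; limma, adjusted p = 0.0138). DHRS2, a short-chain dehydrogenase, rose from 3.74 ± 0.210 to 5.69 ± 0.551 FPKM (SD, n = 3; limma adjusted p 0.0223), and GADD45A, a growth arrest and DNA damage gene, from 27.0 ± 1.98 to 33.6 ± 1.12 FPKM (SD, n = 3; limma adjusted p 0.0465). With 1 library left out, the adjusted p in limma lay between 0.0344 and 0.0609 for CLU, above 0.05 only in the absence of LV-SNORA28 replicate 2, between 0.0439 and 0.0801 for DHRS2, and between 0.0742 and 0.139 for GADD45A. Over all partner and regulator lists, 6 of 77 tested genes (7.79%) passed, against 8.91% of all genes tested.

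**Figure D4:**
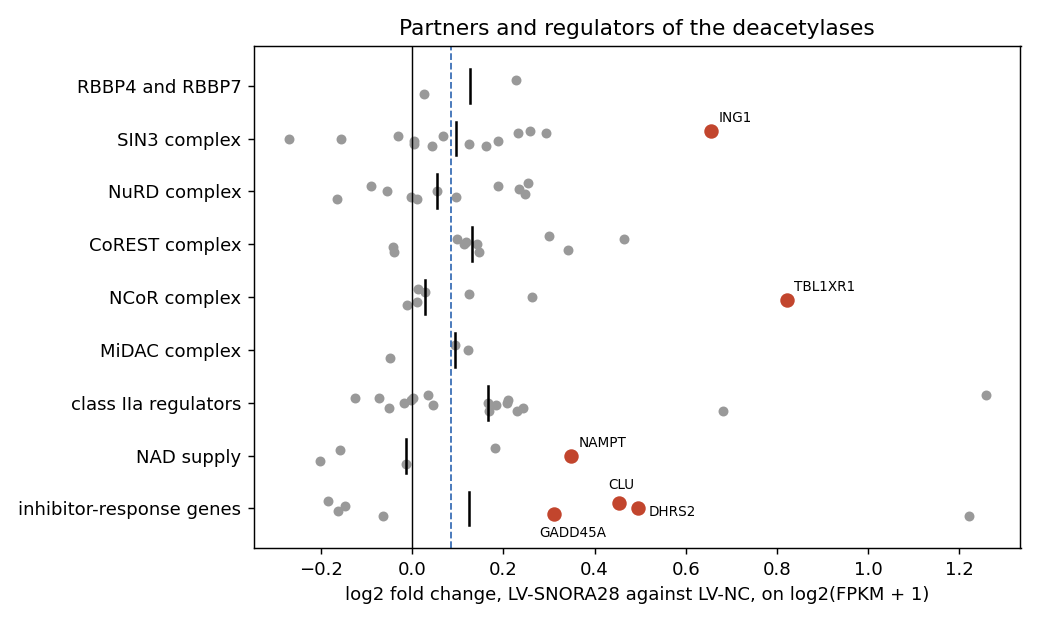
Log2 fold change of LV-SNORA28 against LV-NC on the log2(FPKM + 1) scale for the 77 tested genes of 9 partner and regulator lists; red points have an adjusted p below 0.05, black bars are list medians and the dashed line is the median of all genes tested. The 6 named genes lie at or above 0.31, and most others lie between -0.3 and 0.3. The largest values, of YWHAB (1.26) and CDKN1A (1.22), are not among the called genes.

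The tested genes with profiles nearest to the called members were found by the root mean square difference of log2 values centred on each gene's mean over the 6 libraries. For SIRT1 they were PGK1, a glycolytic kinase (difference 0.020), and PPM1A, a protein phosphatase (0.022). For HDAC5 they were TMEM42 (0.0092) and DEPDC7 (0.021). PGK1 was far more abundant than SIRT1, at 63.4, 67.63 and 70.68 FPKM in LV-NC and 83.01, 85.54 and 87.03 FPKM in LV-SNORA28. Likeness over 6 libraries in 2 groups says nothing of shared function or control.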

How the data were processed

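RNA from HCT116 cells was selected on oligo(dT), copied by a dUTP strand-marking protocol and sequenced as paired ends. The authors deposited FPKM values, 1 table per library. The submitters' processing notes name cutadapt 1.9, HISAT2 2.2.1, StringTie 2.1.6, DESeq2, edgeR and hg38, without roles; the annotation, strand setting and filters are not given in the sources used here. The depth is unknown, so no counting interval was attached. Identifiers were matched to GENCODE 44 (GRCh38), with 60401 of 60612 found. Groups came from the sample titles.

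Values were transformed to log2(FPKM + 1), a scale that shrinks differences between low values. Genes averaging 1 FPKM or more (12076) were fitted with limma 3.58.1 (R 4.3.3, lmFit and eBayes with trend), LV-SNORA28 against LV-NC, with two-sided p-values adjusted by the Benjamini-Hochberg method over all genes tested. The fit was tested on simulated data. An exact permutation test of 3 against 3 libraries cannot go below p = 0.1, and none was used. Promoter letters were searched in Python 3.11.15.

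The 10 genes, the lists (compiled from general knowledge) and the tests were chosen with earlier results of these data known. Named were the 18 family genes, up to 5 called genes per list with the largest fold change, SNORA28, and the 2 nearest profiles of each called member. Alternatives were the fit without trend, quantile normalization, scaling to the nuclear FPKM sum, no filter, a minimum mean of 5 FPKM, blocking on the replicate number, a pseudocount of 0.1, each library left out and a fold limit of 2.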

Additional observations from a re-analysis of the deposited data

How the results depend on the processing

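The 2 members called became 0 without the trend, under quantile normalization, after nuclear scaling, without a filter and under the replicate block, and 0 to 1 with 1 library left out, the 1 being HDAC3 without LV-SNORA28 replicate 1. The number of members that passed the study's limits in limma was 0, and 0 to 1 with 1 library left out. The 1076 genes called over all genes tested became 397 without a filter, 510 with the block and 278 to 629 with 1 library left out. Quantile normalization moved their split from 822 higher and 254 lower to 451 and 375. The higher genes became 306 without a filter, 378 with the block and 188 to 492 with 1 library left out, and the lower genes 91, 132 and 90 to 137. The 6 partner and regulator genes called became 2 without a filter, 3 with the block and 1 to 4 with 1 library left out. In limma 458 genes passed the study's limits on unadjusted p and fold change. That number was 263 under a minimum mean of 5 FPKM, 771 under a pseudocount of 0.1 and 92 at a fold limit of 2. These counts belong to the fit used here and not to the study's own test. Where libraries were left out, fewer samples entered the fit, and without a filter more genes were tested; otherwise the cause was not tested.

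Signs turned only for values near 0. Quantile normalization gave -0.011 for HDAC2, -0.070 for HDAC4, -0.054 for SIRT6, -0.061 for HDAC11 and -0.072 for SIRT3, and nuclear scaling gave -0.0025 for HDAC4 and -0.0038 for SIRT3. With 1 library left out, HDAC4 ranged from -0.087 to 0.12, SIRT6 from -0.0099 to 0.087, HDAC9 from -0.0045 to 0.075, HDAC11 from -0.058 to 0.13 and SIRT3 from -0.014 to 0.048. Over the single genes and alternatives, 237 values kept direction and side, 56 fell short of the threshold, 1 came to pass it and 15 turned sign.

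No pairing by replicate number was seen, since same-numbered libraries' deviations from their group means correlated across genes at -0.04, 0.09 and 0.0098 for replicates 1, 2 and 3. With the block, the adjusted p in limma was 0.0648 for SIRT1 and 0.0747 for HDAC5.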

Other observations

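HDAC3 was not called, and the profiles nearest to it were looked up only after its values had been seen. They were GLOD4 (root mean square difference 0.097), with 8.02, 8.6 and 9.02 FPKM in LV-NC and 9.01, 12.46 and 12.89 FPKM in LV-SNORA28, and PKD2 (0.11), with 1.64, 1.65 and 2.14 FPKM in LV-NC and 1.73, 2.74 and 3.25 FPKM in LV-SNORA28. Like HDAC3, both had LV-SNORA28 replicate 1 within the range of the control libraries. Both were picked for likeness to HDAC3 over these same libraries, so this follows from the choice and is no support for the HDAC3 pattern.

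CDKN1A, the p21 cell cycle inhibitor and a member of the inhibitor-response list, is named after its values were seen. It had 43.96, 41.54 and 42.01 FPKM in LV-NC and 146.22, 152.71 and 45.2 FPKM in LV-SNORA28, so replicate 3 lay close to the controls and the others far above. The log2 difference was 1.22 (SE 0.45; limma, adjusted p = 0.134). The library of LV-SNORA28 that lay near the controls was thus replicate 3 for CDKN1A and replicate 1 for HDAC3.

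HDAC4-AS1, the antisense transcript that overlaps HDAC4 over 219 bases, had 0.32, 0.78 and 0.63 FPKM in LV-NC and 1.06, 0.93 and 1.33 FPKM in LV-SNORA28, without overlap, while the HDAC4 groups overlapped. Its mean was below 1 FPKM and it was not tested.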
